A study of Sus scrofa with 16 samples.

Results

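Aquaporins are membrane channels that let water, and in some members glycerol, hydrogen peroxide or ammonia, cross cell membranes along their gradients. The intestine absorbs nutrients together with large volumes of fluid, and its epithelium, endothelium and crypts each carry their own set of these channels. AQP8 passes water, ammonia and hydrogen peroxide and is known from absorptive cells of the gut. AQP7 and AQP10 are aquaglyceroporins, which carry glycerol as well as water, AQP11 lies mainly in membranes of the endoplasmic reticulum, and AQP1 is the classical water channel of red cells, kidney tubules and capillary endothelium. Of the 5 genes listed for this family, 4 were found by symbol among the 25880 genes of the count matrices. AQP8 (ENSSSCG00000031865), AQP10 (ENSSSCG00000006551) and AQP11 (ENSSSCG00000014880) carried their symbol in the files, and AQP1 (ENSSSCG00000033190) took its symbol from a gene name table. AQP7 is not analysed here.

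The cells came from the small intestine of mixed-breed female pigs 7.5 weeks old that received no treatment named in the labels. Epithelium was loosened with dithiothreitol and EDTA, live cells were enriched on Percoll, and droplet libraries were made with the Chromium 3' version 3 chemistry, which counts unique transcript molecules (UMIs) per cell barcode. The 4 groups were duodenum just below the pylorus (DUOD), jejunum farther along (JEJ), ileum bearing Peyer's patches, which are lymphoid follicles (IPP), and neighbouring ileum free of them (NoPP). The question was how the cells of the epithelium differ along the gut. Each region had 4 titles but 1 count matrix without a map from cells to titles, so a region is 1 sample: no test was possible, no p-value is given, and every interval is an exact 95% interval that covers counting error only, not differences between pigs. Intervals of levels and ratios treat UMIs as independent, so they leave out the spread between cells too. A count of 0 is given with the limit it allows, taken as 3 UMIs or 3 cells of the group's total.

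The matrices held 44726845 to 91813234 UMIs. A barcode was kept with 1000 or more UMIs, 500 or more genes and no more than 25% mitochondrial UMIs. The kept cells numbered 718 for DUOD, 986 for JEJ, 3273 for IPP and 2084 for NoPP, with medians of 3645.5 to 4452 UMIs. The NoPP library stood apart. In it 121 barcodes had 10 or more times the UMIs under the same barcode of a different library and were left out. Over all regions 12 kept cells still had a barcode that also passed elsewhere, 3 of them in NoPP. Most cells were lymphocytes. In the order DUOD, JEJ, IPP and NoPP the epithelial gate took 267, 301, 247 and 132 cells, and 126 cells lay near its edge. Marker gates named 198, 190, 156 and 32 of them enterocyte-like (absorptive cells), 7, 39, 4 and 8 BEST4-like (a rarer absorptive type rich in channels), 6, 24, 45 and 39 goblet-like (mucus cells) and 41, 19, 31 and 38 enteroendocrine-like (hormone cells). Crypt-like cells numbered 0, 9, 2 and 3, and 5, 19, 2 and 6 epithelial cells met no class. With the 121 shared barcodes kept, NoPP had 135 enterocyte-like cells in place of 32, so most of the barcodes left out were of this class. Levels are given as CPM (counts per 1e6, the UMIs of a gene over all UMIs of the class). Enterocyte-like cells read 3483 CPM of FABP2 and 3.44 CPM of the leukocyte gene PTPRC, against 30.1 and 1404 CPM in T or innate lymphoid-like cells. Both genes are themselves gate markers, so their levels describe the gated cells and cannot check the names. Depth differed, with a median of 27380 UMIs per enterocyte-like cell in DUOD and 6189.5 in JEJ, then 16032 in IPP and 16258 in NoPP.

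Over all kept cells, AQP8 had 2587 UMIs in 348 cells, and 93.4% of them lay in enterocyte-like cells. AQP11 had 1100 UMIs in 520 cells, with 77.0% in that class. AQP10 had 96 UMIs in 58 cells, with 79.2% there. AQP1 was distributed otherwise: of its 106 UMIs in 50 cells, 17.0% lay in enterocyte-like cells while 92.5% lay behind the epithelial gate as a whole. That gate also passed 11 cells with stromal markers, which held 37 of the AQP1 UMIs. These shares depend on how many cells of each class were captured, so the levels below are given per class and region.

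AQP8 was low in duodenal absorptive cells and high in those of the other 3 regions. Enterocyte-like cells held 62 UMIs of AQP8 in DUOD, which is 12.1 CPM (9.27 to 15.5). They held 1407 in JEJ, or 403 CPM (383 to 425), 775 in IPP, or 310 CPM (288 to 333), and 172 in NoPP, or 345 CPM (296 to 401). In order of level, JEJ came before NoPP, IPP and DUOD. The DUOD interval did not meet the other 3, and the NoPP interval overlapped those of JEJ and IPP.

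The jejunal level of AQP8 was 33.4-fold the duodenal one (25.9 to 43.8), a log2 ratio of 5.06. That ratio became 6.65 when the mitochondrial limit was lowered to 10% and 4.13 with no limit, so its size moved with the filter and its direction did not. The value of 6.65 rests on 3 AQP8 UMIs in 64 DUOD cells, and in JEJ 1 cell held 54 of the 181 UMIs left. AQP8 in IPP was 1.30-fold lower than in JEJ (1.19 to 1.42), a log2 ratio of -0.38 that turned to 0.42 at the 10% limit and to 0.36 with none. At the 10% limit IPP kept 11 enterocyte-like cells, and 1 of them held 27 of their 29 AQP8 UMIs. Between the ileal regions the level in IPP was 0.898 times that in NoPP (0.760 to 1.07). In NoPP 1 cell held 42 of the 172 UMIs, or 24.4%, and without the highest cell of each group the log2 ratio of IPP to NoPP moved from -0.16 to 0.13. With the shared barcodes kept, which gave NoPP 135 enterocyte-like cells, this log2 ratio was 0.25.

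AQP8 was also uneven among cells of the class. Among cells with at least 10000 UMIs, 118 of 147 in DUOD had no AQP8 UMI, against 12 of 86 in JEJ, 22 of 126 in IPP and 5 of 25 in NoPP. The median of these deep cells was 216 CPM in JEJ, 244 CPM in IPP and 217 CPM in NoPP, and the highest cell in JEJ reached 2201 CPM. The tenth of cells richest in AQP8 held 83.9% of its UMIs in DUOD and 59.3% in JEJ, then 38.8% in IPP and 57.6% in NoPP. As sequenced, 15.2% of DUOD cells (10.5 to 20.9), 54.7% of JEJ cells (47.4 to 62.0), 73.1% of IPP cells (65.4 to 79.9) and 62.5% of NoPP cells (43.7 to 78.9) had a UMI. After every cell was thinned to 1000 UMIs, which left out none, the shares were 1.52%, 18.4%, 19.9% and 25.0%. In T or innate lymphoid-like cells, which should lack the gene, the unthinned shares were 0% of 366 cells (up to 0.820%), 0.496%, 1.16% and 0.467%, at medians of 2891.5, 3582, 3637 and 3541 UMIs.

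**Figure D1:**
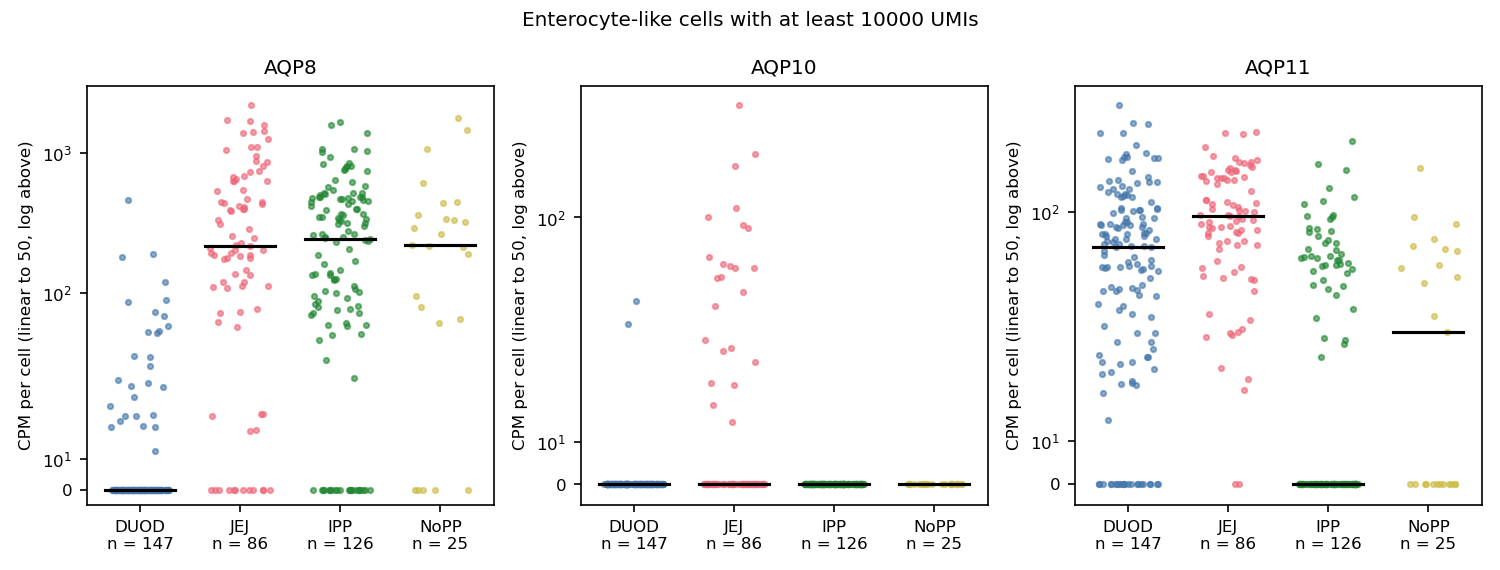
AQP8, AQP10 and AQP11 in single enterocyte-like cells with at least 10000 UMIs, in CPM per cell on an axis that is linear up to 50 and logarithmic above; each point is a cell, the black line is the median and n is the number of cells in each region. The AQP8 medians lie at 216, 244 and 217 CPM in JEJ, IPP and NoPP and at 0 in DUOD, where 118 of 147 cells have no UMI.

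AQP10 was mainly a jejunal reading, with 86 of its 96 UMIs in JEJ. Enterocyte-like cells held 72 UMIs in JEJ, or 20.6 CPM (16.2 to 26.0), and 4 UMIs in DUOD, or 0.780 CPM (0.213 to 2.00). They held 0 UMIs in IPP and 0 in NoPP, where counting error allows up to 1.20 and 6.02 CPM. The JEJ interval did not meet any of the others, which overlapped each other.

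JEJ exceeded DUOD 26.5-fold for AQP10 (9.90 to 99.7). Of the 4 duodenal UMIs, 3 came from 1 cell, and without the highest cell of each group the log2 ratio rose from 4.73 to 6.59. Against JEJ, AQP10 was at least 17.2-fold lower in IPP and at least 3.43-fold lower in NoPP, with the floor of 3 UMIs over the group in place of 0. With a 10% mitochondrial limit fewer ileal cells remained and the IPP bound shrank to a log2 ratio of -0.16, which is no longer past 2-fold. A UMI was seen in 21.1% of JEJ enterocyte-like cells (15.5 to 27.5), 3.16% after thinning, against 0.331% of JEJ T or innate lymphoid-like cells both as sequenced and thinned.

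AQP11, the reticulum aquaporin, was higher in enterocyte-like cells of the upper gut than in those of the ileum. Enterocyte-like cells held 375 UMIs in DUOD, or 73.1 CPM (65.9 to 80.9), and 381 in JEJ, or 109 CPM (98.6 to 121). They held 71 in IPP, or 28.4 CPM (22.2 to 35.8), and 20 in NoPP, or 40.2 CPM (24.5 to 62.0). JEJ was highest, then DUOD, and the intervals of the ileal regions overlapped each other but not those of the upper gut.

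The jejunal level of AQP11 was 1.49-fold the duodenal one (1.29 to 1.73), a log2 ratio of 0.58 that was 1.26 at the 10% mitochondrial limit. It was 3.85-fold lower in IPP than in JEJ (2.98 to 5.03) and 2.72-fold lower in NoPP than in JEJ (1.74 to 4.51). IPP stood at 0.707 times NoPP, with an interval across 1 (0.426 to 1.23). A UMI was seen in 67.7% of DUOD cells, 59.5% of JEJ cells, 32.7% of IPP cells and 43.8% of NoPP cells, but in 3.54%, 8.42%, 3.85% and 3.12% after thinning. T or innate lymphoid-like cells had 1.37%, 2.31%, 1.42% and 1.11% as sequenced.

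AQP1 was near the floor in enterocyte-like cells. It had 0 UMIs in DUOD (up to 0.585 CPM), 8 in JEJ (2.29 CPM, 0.990 to 4.52), 7 in IPP (2.80 CPM, 1.13 to 5.77) and 3 in NoPP (6.02 CPM, 1.24 to 17.6). The intervals of JEJ, IPP and NoPP overlapped. NoPP was 2.63-fold JEJ, but the interval ran from 0.449 to 10.9, and IPP was 0.465 times NoPP (0.106 to 2.79).

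Counted by the size rule, a difference past 2-fold with at least 10 UMIs over both groups, 2 of 3 comparable members were higher in JEJ than in DUOD, AQP8 and AQP10, and 0 lower. Over all 9558 genes measured in that comparison 10.5% were past 2-fold higher and 12.7% lower. In IPP against JEJ 0 of 4 members were higher and 2 lower, AQP10 and AQP11, where 11.3% of all genes were higher and 16.6% lower. In NoPP against JEJ 1 of 4 was higher, AQP1 on 3 UMIs, and 2 lower, AQP10 and AQP11, where 11.2% and 13.5% of all genes were. When mitochondrial, ribosomal protein and the 10 highest genes were left out of the totals, all log2 ratios of NoPP to JEJ shifted by 0.21, and the share of all calls that were higher went from 45.4% to 61.5%. In IPP against NoPP 0 of 3 were higher and 1 lower, again AQP1, where 7.42% and 8.02% of all genes were. The comparisons with JEJ share its cells.

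**Figure D2:**
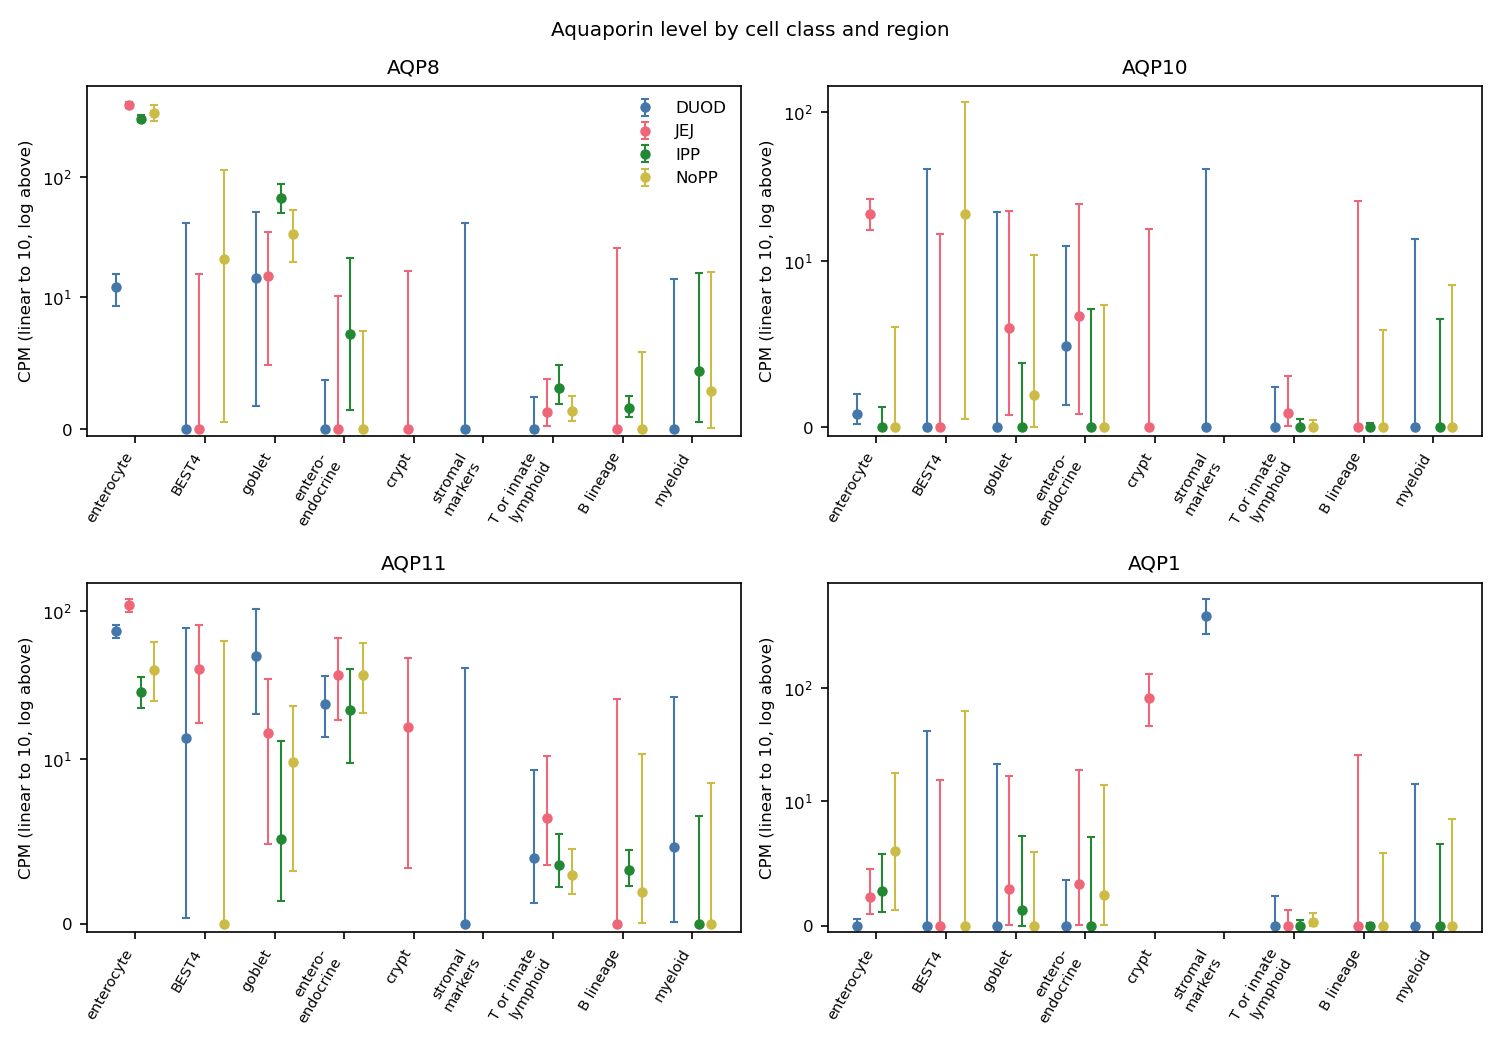
Levels of AQP8, AQP10, AQP11 and AQP1 in CPM (linear to 10, logarithmic above) by cell class and region, for groups of 5 or more cells; points are summed UMIs over summed totals and bars are 95% Poisson intervals, or for a count of 0 reach to 3 UMIs. AQP8 stands at 310 to 403 CPM in enterocyte-like cells of JEJ, IPP and NoPP and at 12.1 CPM in DUOD, while AQP1 is highest in the DUOD cells with stromal markers, at 440 CPM.

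The other epithelial classes were compared with enterocyte-like cells of their own region where both had at least 10 cells. BEST4-like cells, a type known for CFTR and other ion channels, could be compared in JEJ alone. Their 39 cells held 0 UMIs of AQP8, at least 26.3-fold below the enterocyte-like level, and 0 of AQP10, at least 1.35-fold below. They held 8 UMIs of AQP11, or 40.8 CPM (17.6 to 80.5), which was 2.68-fold lower (1.34 to 6.24). So 2 of 3 comparable members were lower and 0 higher, where 17.2% of all genes measured were lower and 28.7% higher. The log2 ratio of AQP11 went from -1.42 to -0.95 at a mitochondrial limit of 40% and turned to 0.22 with none. With no limit AQP8 came to -2.18, from a bound of -4.72.

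Goblet-like cells read little AQP8: 5 UMIs in JEJ (14.9 CPM, 4.85 to 34.8), 52 in IPP (66.9 CPM, 49.97 to 87.7) and 17 in NoPP (33.4 CPM, 19.5 to 53.5). This was 27.0-fold (11.6 to 83.3), 4.63-fold (3.496 to 6.26) and 10.3-fold (6.26 to 18.1) below the enterocyte-like cells of those regions. Single cells carried these levels, since 1 cell held 15 of the 17 NoPP UMIs and another 20 of the 52 in IPP. Without the highest cell of each group the log2 ratios went from -4.76 to -6.87 in JEJ, from -2.21 to -2.82 in IPP and from -3.37 to -6.01 in NoPP. With no mitochondrial limit they came to -2.08, -1.51 and -2.59. Over all regions 12 goblet-like cells had an AQP8 UMI. Enterocyte markers made up a median of 419 per 10000 UMIs in these 12, against 15.7 in the 102 without AQP8, and their median depth was 31892.5 against 14232.5 UMIs. The part of doublets, which no caller was run to find, was not tested.

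AQP11 was lower in goblet-like than in enterocyte-like cells in each region compared. It stood at 14.9 CPM in JEJ, 5.15 CPM in IPP and 9.83 CPM in NoPP, which was 7.32-fold (3.11 to 22.7), 5.52-fold (2.06 to 20.8) and 4.08-fold (1.49 to 13.9) lower. AQP10 had 2 UMIs in JEJ goblet-like cells, 3.46-fold below enterocyte-like cells with an interval across 1 (0.923 to 29.1). With no mitochondrial limit the log2 ratios of AQP11 shrank to -1.34, -1.38 and -0.95, and that of AQP10 from -1.79 to -0.55. By the size rule 3 of 3 members were lower in JEJ, 2 of 2 in IPP and 2 of 2 in NoPP, and 0 higher, where 20.9%, 15.3% and 16.1% of all genes were lower and 17.9%, 21.9% and 26.7% higher. In NoPP the totals without mitochondrial, ribosomal protein and the 10 highest genes shifted log2 ratios by -0.25 and took the share of calls that were higher from 62.4% to 51.8%.

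Enteroendocrine-like cells had next to no AQP8. Theirs was a count of 0 in DUOD, JEJ and NoPP and of 3 in IPP, which put them at least 3.27-fold, at least 40.2-fold, at least 46.8-fold and 43.4-fold (14.8 to 211) below the enterocyte-like cells of those regions. AQP11, by contrast, was read in 39.0% of these cells in DUOD and 47.4% in JEJ, then 29.0% in IPP and 28.9% in NoPP. Its level was 23.4 CPM in DUOD (14.1 to 36.6), 36.8 in JEJ (18.4 to 65.8), 21.4 in IPP (9.80 to 40.7) and 36.9 in NoPP (20.6 to 60.8), with all 4 intervals overlapping. Enterocyte-like cells exceeded that 3.12-fold in DUOD (1.97 to 5.25) and 2.97-fold in JEJ (1.64 to 5.999). In IPP the enteroendocrine-like level was 0.755 times the enterocyte-like one (0.331 to 1.51) and in NoPP 0.918 times (0.437 to 1.89). With no mitochondrial limit the log2 ratio came to -0.39 in DUOD and -0.27 in JEJ, neither past 2-fold, and turned from -0.12 to 1.52 in NoPP. Whether the class difference itself differed between upper and lower gut was not tested.

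AQP10 had 4 UMIs in DUOD enteroendocrine-like cells (4.93 CPM, 1.34 to 12.6) and 2 in those of JEJ (6.69 CPM, 0.810 to 24.2). The DUOD level was 6.32-fold that of enterocyte-like cells (1.18 to 33.9), on 4 UMIs in each group, too few for the size rule. The JEJ level was 3.09-fold below enterocyte-like cells, with an interval across 1 (0.824 to 26.0). By the size rule 2 of 2 members were lower in DUOD, 3 of 3 in JEJ, 1 of 2 in IPP and 1 of 2 in NoPP, and 0 higher, where 25.8%, 17.8%, 18.2% and 16.6% of all genes were lower and 20.7%, 27.2%, 24.7% and 30.6% higher. In DUOD the other totals shifted log2 ratios by 0.71 and took the share of calls that were higher from 44.5% to 72.1%. There AQP8 came to -0.99 and AQP11 to -0.93, so neither was past 2-fold.

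AQP1 was read in a different set of cells. The 9 crypt-like cells of JEJ, which carry stem and dividing-cell genes, held 15 AQP1 UMIs in 5 cells (5, 4, 4, 1 and 1), or 81.9 CPM (45.8 to 135). The 2 crypt-like cells of IPP held 5 UMIs, all in 1 cell, and the 3 of NoPP held 1. A further 11 UMIs lay in 6 of the 19 JEJ epithelial cells without a class, all 6 of which fell in crypt clusters when the cells were clustered. Crypt-like groups were under 10 cells and were not compared. Markers of Paneth cells, which sit among the crypt stem cells, came to a median of 79.0 per 10000 UMIs in the 9 crypt-like cells of JEJ, beside 50.1 for the crypt markers. In IPP the medians were 23.6 and 26.3, and in NoPP 2.88 and 21.9. The part of Paneth cells in the AQP1 counts was not tested.

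The highest AQP1 level was in cells that passed the epithelial gate but carried at least 3 stromal markers. In DUOD 8 such cells held 32 AQP1 UMIs in 6 cells (14, 8, 5, 2, 2 and 1), or 440 CPM (301 to 622), and in IPP 3 cells held 5 UMIs in 2 cells, or 303 CPM (98.3 to 707). The collagen gene COL1A2 and the matrix gene DCN were present in all 11 cells, COL1A1 in 10 and COL3A1 in 9. Of the other stromal and muscle markers, TAGLN had 4 UMIs in 2 cells, and LUM, PDGFRA, PDGFRB, ACTA2, DES and MYH11 were at 0. Among the epithelial markers of the gate, the keratin KRT8 had 556 UMIs in 11 of 11 cells, the cadherin CDH1 28 in 8, the claudin CLDN3 28 in 8 and KRT18 27 in 3. CLDN7 had 2 UMIs and EPCAM 1, while CDH17, CLDN4, ELF3, ESRP1 and VIL1 were at 0. The endothelial genes VWF, CDH5, TIE1, PLVAP and ESAM were at 0 in these cells, whereas KDR had 11 UMIs in 5 of them, PECAM1 6 in 5, RAMP2 3 in 2 and EGFL7 2 in 2. Of all kept cells 18 had at least 3 endothelial markers. Among these, 2 were cells with stromal markers and held 19 of the 37 AQP1 UMIs of that class, and the other 16 held 0. The part of endothelial RNA in the AQP1 counts was not tested. The 13 cells with at least 3 red cell markers held 1 AQP1 UMI. Immune cells, the background for AQP1, held 0 UMIs of it in DUOD, JEJ and IPP and 3 in NoPP.

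Within the enterocyte-like class, AQP8 and AQP10 followed the amount of absorptive transcripts in opposite directions in the jejunum. This split was chosen after the values had been seen, so it is a description. Cells of each region were ranked by the share of their UMIs in enterocyte markers and cut into 3 groups of nearly equal size. In JEJ AQP8 stood at 583 CPM (542 to 625) in the low group of 63 cells, 409 CPM (374 to 445) in the middle and 122 CPM (99.8 to 147) in the high group of 64 cells. AQP10 stood at 6.01 CPM (2.60 to 11.9), 14.0 CPM (8.29 to 22.1) and 52.9 CPM (38.7 to 70.5) in the same order. From low to high, AQP8 was 4.78-fold lower (3.90 to 5.91), AQP10 8.79-fold higher (4.11 to 21.6) and AQP11 1.71-fold higher (1.31 to 2.22).

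The high group in JEJ was also shallower, with a median of 4123.5 UMIs against 11069 in the low group, and had 2.83% mitochondrial UMIs against 11.5%. Among cells with at least 5000 UMIs, where the medians were 34811 and 37907.5 UMIs and 13.6% mitochondrial in both, AQP8 was 3.41-fold lower (2.91 to 4.01) and AQP10 6.01-fold higher (2.65 to 15.9). AQP10 was read in 16 of the 86 JEJ cells with no AQP8 UMI, at 48.7 CPM, and in 24 of the 104 with one, at 14.9 CPM, though the first set had a median of 3107.5 UMIs and the second 33195.

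The other regions differed among themselves in AQP8. In DUOD it was 5.14-fold lower in the high than in the low group (2.13 to 15.003) and in NoPP 2.86-fold lower (1.67 to 5.14), on 11 cells a group. In IPP it went the other way, 2.29-fold higher (1.86 to 2.82), from 173 CPM (145 to 206) to 397 CPM (356 to 441). AQP11 in the high group was 1.01 times that in the low group in DUOD (0.769 to 1.33) and 1.21 times in IPP (0.666 to 2.23). The difference in direction between regions was not tested.

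**Figure D3:**
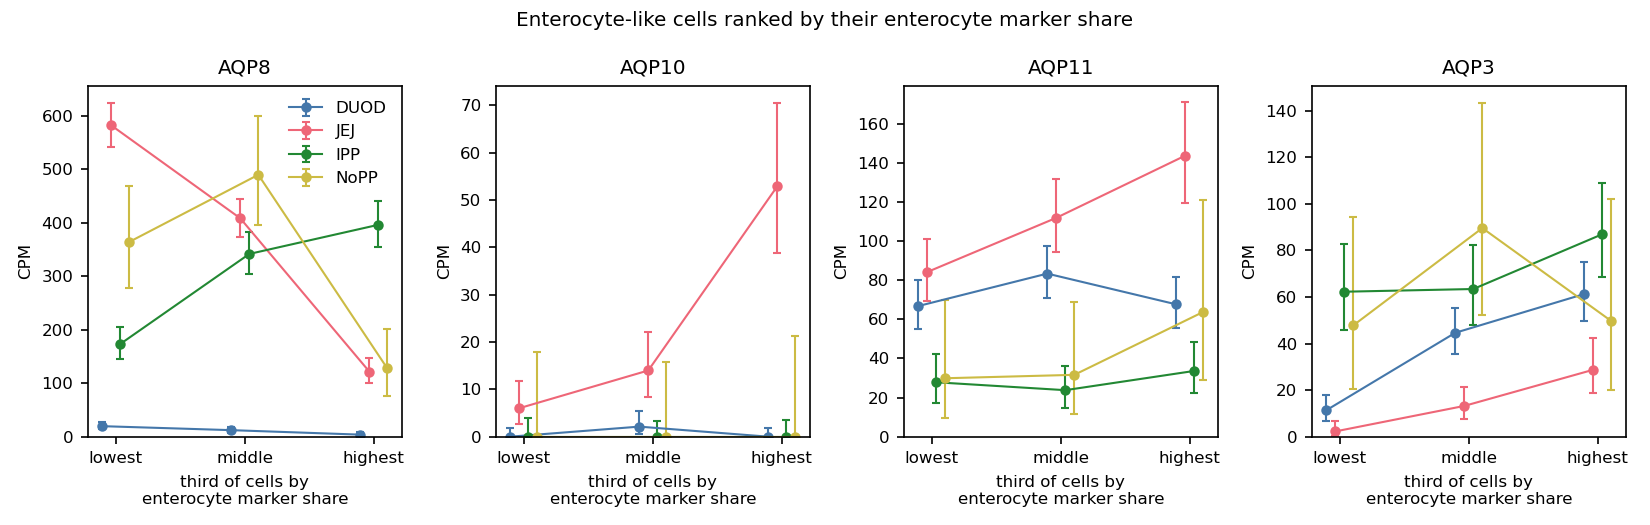
Level in CPM of AQP8, AQP10, AQP11 and the aquaglyceroporin AQP3 in enterocyte-like cells ranked within each region by their enterocyte marker share and cut into 3 groups; bars are 95% Poisson intervals, or for a count of 0 reach to 3 UMIs. In JEJ AQP8 goes from 583 to 122 CPM and AQP10 from 6.01 to 52.9 CPM, while AQP8 in IPP goes from 173 to 397 CPM.

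Free RNA was present in all libraries. In barcodes with at most 100 UMIs, AQP8 stood at 6.503 CPM for DUOD, 86.4 for JEJ, 46.5 for IPP and 32.0 for NoPP, and AQP10 at 1.22, 18.9, 0.712 and 0.605. AQP11 stood there at 10.97, 36.2, 10.3 and 11.3 CPM. T or innate lymphoid-like cells of the same libraries read 0, 1.28, 3.11 and 1.33 CPM of AQP8, below the enterocyte-like level in every region. For AQP10 in JEJ, the 18.9 CPM of the low-UMI barcodes was close to the 20.6 CPM of enterocyte-like cells. For AQP11 in JEJ the 2 values were 36.2 and 109 CPM. The part of free RNA in the enterocyte-like levels was not tested.

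By likeness over 20 class-by-region sums of at least 20 cells, on log2(CPM + 1), genes whose pattern was close to that of AQP8 included the retinol dehydrogenase SDR16C5 (Pearson r = 0.94) and MME, the brush border endopeptidase neprilysin (0.93). AQP10 was closest, among genes with a symbol, to the trypsin inhibitor SPINK1 (0.80) and to BCO1, which cleaves carotene to retinal (0.77). It had 85 UMIs in these sums, 72 of them in the sum of JEJ enterocyte-like cells. AQP11 was closest to TMEM253 (0.95), the arsenic methyltransferase AS3MT (0.93), PGRMC1 (0.93) and the retinal dehydrogenase ALDH1A1 (0.93). Sums from 1 library share its depth and free RNA, and these values are descriptions. AQP1 had 23 UMIs in those sums and was not ranked.

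Genes of fluid and ion transport, which set the gradients water follows, differed in both directions between regions. In JEJ against DUOD, 3 of 19 measured were past 2-fold higher and 6 lower, where 10.5% and 12.7% of all genes were, with a median log2 ratio of 0.06, beside 0.04 over all genes. The glucose and sodium carrier SLC5A1 was 80.7-fold higher (62.9 to 105), from 12.3 to 992 CPM. Carbonic anhydrase CA2 was 198-fold lower (126 to 329), from 1077 to 5.45 CPM, and the bicarbonate carrier SLC4A4 6.34-fold lower. In IPP against JEJ 7 of 20 were higher and 3 lower, where 11.3% and 16.6% of all genes were, with a median of 0.44 beside -0.14 over all genes. The chloride and bicarbonate exchanger SLC26A3 was at least 55.3-fold higher, at 47.6 CPM against 0 UMIs, and the potassium channel KCNQ1 3.44-fold lower. In NoPP against JEJ 9 of 19 were higher and 2 lower, where 11.2% and 13.5% of all genes were, with a median of 0.51 beside -0.09. In IPP against NoPP 1 was higher and 1 lower of 19, where 7.42% and 8.02% of all genes were, with a median of -0.21 beside -0.04.

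The list of glycerol and triglyceride handling was taken because aquaglyceroporins carry glycerol. In JEJ against DUOD 4 of 17 were higher and 3 lower, beside 10.5% and 12.7% of all genes, with a median of -0.31 beside 0.04. TKFC, which phosphorylates glyceraldehyde and dihydroxyacetone, was 5.72-fold higher, and the monoglyceride lipase MGLL at least 57.8-fold lower, with 0 UMIs against 255. In IPP against JEJ 0 of 16 were higher and 6 lower, beside 11.3% and 16.6% of all genes, with a median of -0.78 beside -0.14. Among the 6 were DGAT2, which makes triglyceride, 11.8-fold lower (6.59 to 23.2), and GPAT3, which acylates glycerol phosphate, 4.06-fold lower. In NoPP against JEJ 2 of 16 were higher and 6 lower, beside 11.2% and 13.5% of all genes, with a median of -0.71 beside -0.09. In IPP against NoPP 1 was higher and 2 lower of 16, beside 7.42% and 8.02%, with a median of -0.22 beside -0.04.

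The next list held genes that make or remove hydrogen peroxide and genes of the reticulum, where AQP11 resides. Of these, 1 of 13 was higher and 2 were lower in JEJ than in DUOD, near the 10.5% and 12.7% of all genes, with a median of -0.04 beside 0.04. In IPP against JEJ 0 of 13 were higher and 5 lower, beside 11.3% and 16.6% of all genes, with a median of -0.49 beside -0.14. Catalase, CAT, was 5.15-fold lower (4.41 to 6.04) and superoxide dismutase SOD1 3.20-fold lower (2.97 to 3.45). In NoPP against JEJ 0 of 13 were higher and 3 lower, beside 11.2% and 13.5% of all genes, with a median of -0.51 beside -0.09. In IPP against NoPP 0 of 12 passed in either direction, beside 7.42% and 8.02%, with a median of -0.20 beside -0.04.

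Across cell classes, the measured genes of the fluid and ion list were mostly below the enterocyte-like level. Genes that served as gate markers were left out of the lists. From the fluid and ion list these were BEST4, OTOP2, CA7, CFTR, GUCA2A and GUCA2B, all of them markers of the BEST4-like gate. The counts for BEST4-like cells therefore say nothing on these genes. In JEJ it had 2 of 15 higher and 9 lower in BEST4-like cells, 3 of 17 higher and 9 lower in goblet-like cells, and 3 of 17 higher and 11 lower in enteroendocrine-like cells. Of all genes measured in those comparisons 28.7%, 17.9% and 27.2% were higher and 17.2%, 20.9% and 17.8% lower. The list's medians were -1.56, -1.27 and -1.43, beside 0.28, -0.08 and 0.26 over all genes. The sodium, potassium and chloride carrier SLC12A2 was 10.8-fold higher in BEST4-like, 8.21-fold in goblet-like and 3.45-fold in enteroendocrine-like cells of JEJ. In the same region SLC5A1 was 32.4-fold lower in BEST4-like cells and 49.4-fold lower in enteroendocrine-like cells. The glycerol list in JEJ had 0 of 15, 0 of 16 and 1 of 17 higher and 10, 8 and 6 lower in these classes, with medians of -1.37, -0.95 and -0.39. The peroxide list had 0 of 12, 3 of 13 and 1 of 13 higher and 7, 4 and 4 lower, with medians of -1.08, -0.34 and -0.36. These counts stand beside the same shares and medians of all genes. In IPP goblet-like cells the fluid and ion list had 3 of 19 higher and 15 lower, where 21.9% and 15.3% of all genes were, with a median of -2.21 beside 0.15. In IPP enteroendocrine-like cells it had 3 of 20 higher and 14 lower, where 24.7% and 18.2% of all genes were, with a median of -2.06 beside 0.22.

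The mitochondrial limit removed most barcodes with enterocyte markers in every region, and the members responded differently to it. Of barcodes that met the enterocyte gate, 2193 lay over the limit and 198 within it in DUOD. In IPP these were 808 and 156, and in NoPP 385 and 32. Over the limit lay 1715 JEJ barcodes that met the enterocyte gate, against 190 within it, with median depths of 7910 and 6189.5 UMIs. As CPM of non-mitochondrial UMIs, AQP8 stood at 167 over the limit and 469 within, 2.82-fold lower (2.59 to 3.07), and AQP11 at 72.7 and 127, 1.75-fold lower (1.51 to 2.02). AQP10 stood at 63.5 over the limit and 24.0 within. Elsewhere, AQP8 over the limit was 1.71-fold lower in IPP (1.52 to 1.91) and 2.05-fold lower in NoPP (1.67 to 2.51). In DUOD it was 1.18 times the level within (0.866 to 1.63). AQP11 over the limit was 1.67-fold lower in DUOD, 1.66-fold in IPP and 2.67-fold in NoPP. By bins of mitochondrial share in JEJ, AQP8 was 329 CPM at 0 to 10%, 501 at 10 to 25%, 252 at 25 to 50%, 144 at 50 to 75% and 79.2 above. AQP10 in the same bins was 50.9, 18.0, 50.4, 71.6 and 57.7 CPM, so the bin from 10 to 25%, whose median depth was 35307 UMIs, was the lowest for AQP10 and the highest for AQP8.

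**Figure D4:**
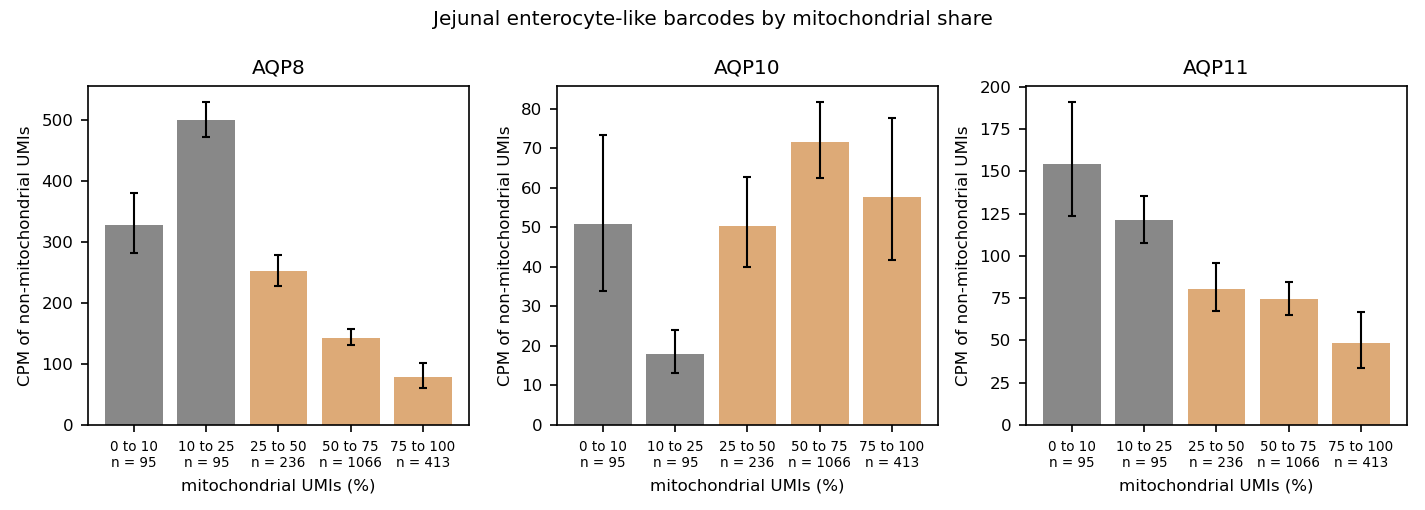
AQP8, AQP10 and AQP11 as CPM of non-mitochondrial UMIs in jejunal barcodes that meet the enterocyte gate, by their mitochondrial share; grey bars are within the limit of 25% and orange bars over it, error bars are 95% Poisson intervals and n is the number of barcodes. AQP8 is highest, at 501, and AQP10 lowest, at 18.0, in the bin from 10 to 25%.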

How the data were processed

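Droplet RNA libraries of 4 small intestinal regions were analysed. The deposited values are UMI counts per gene and barcode, made by the authors with Cell Ranger 4 per the file headers (4.0.6 per the submitters' processing notes), and the genome build is not given in the sources used here. The matrices list 6794880 barcodes each, so calling cells was done here, with Python 3.11.15, numpy 2.4.6, scipy 1.17.1 and pandas 2.3.3.

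Cells had at least 1000 UMIs, 500 genes and at most 25% UMIs from 13 mitochondrial genes. Of UMIs of epithelial and immune compartment markers (at least 3), epithelial cells had at least 80% epithelial and immune cells at most 20%. Cells between, and cells with fewer than 3 such UMIs, were put in no class (22, 33, 34 and 28 in DUOD, JEJ, IPP and NoPP). They stayed in the totals over all kept cells. This step served in place of a doublet caller but cannot find doublets within a compartment. BEST4-like and goblet-like cells had at least 4 markers and 50 marker UMIs per 10000 non-mitochondrial UMIs, enteroendocrine-like 4 and 20, crypt-like and tuft-like 3 and 5, and enterocyte-like 5 and 50 with no other class met. Gate thresholds were set after seeing the data. Clustering by the Leiden method (leidenalg 0.10.2) put 560 of 576 gated enterocyte-like cells in enterocyte clusters. The clusters were named with the same marker lists as the gates, so this overlap is no independent check.

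CPM is the UMIs of a class over its total. Ratios have exact conditional Poisson intervals, shares Clopper-Pearson intervals, and a count of 0 was set to 3 UMIs over the group or 3 cells of the total. Bounds that point away from the group at 0 are not given. The ratio code was run on simulated Poisson counts that had no spread between cells. That run checks the code and cannot show how well the intervals hold for these data. All members are named, of the other lists up to 3 genes a direction past 2-fold, and for likeness the 5 highest correlations, and some of these genes are not reported here. Genes used as gate markers were left out of the lists. The members and lists were chosen with earlier results of these data known. Alternatives were other barcode, mitochondrial, gate, cluster, averaging, scaling and depth settings.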

Additional observations from a re-analysis of the deposited data

Results flagged for a closer look

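AQP10 in jejunal barcodes outside the analysed cells was singled out because the signal there exceeded that of the analysed cells. The barcodes over the mitochondrial limit that met the enterocyte gate held 343 AQP10 UMIs in 249 of 1715 barcodes, against 72 UMIs in 40 of the 190 within it. As CPM of non-mitochondrial UMIs, the level over the limit was 2.64-fold higher (2.04 to 3.46). AQP10 had 106 UMIs, or 18.9 CPM, in the JEJ barcodes with at most 100 UMIs. The share of barcodes with an AQP10 UMI was lower over the limit than within it. In the bins given above, cells with at most 10% mitochondrial UMIs stood near the level of the bins over the limit. Only the bin from 10 to 25%, which was the deepest, was lower. The part of RNA quality and of depth in the 2.64-fold difference was not tested.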

How the results depend on the processing

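The member ratios were recomputed under 12 other settings, which gave 377 values for 33 ratios: 335 lay within the interval of the reported ratio or equalled it and 42 beyond it. The sign changed in 19 values of 7 ratios. Of these, 18 were of 6 ratios that were within 2-fold as reported, 11 of them inside the reported interval and 7 beyond it: AQP8 in IPP against JEJ (0.42 and 0.36) and against NoPP (0.10 to 0.41), and AQP11 in NoPP enteroendocrine-like against enterocyte-like cells (1.52). Of 276 values for the 24 ratios past 2-fold, 257 stayed past 2-fold in the same direction. Among ratios past 2-fold the 1 change of sign was AQP11 in BEST4-like against enterocyte-like cells of JEJ, at 0.22 (log2) without a mitochondrial limit. With a limit of 10% the number of members past 2-fold fell from 2 to 1 in IPP against JEJ and from 7 to 1 in goblet-like against enterocyte-like cells, where 1 region still had enough cells. In IPP against NoPP it fell from 1 to 0, the AQP1 call, when shared barcodes were kept, with Leiden clusters, with the stricter compartment gate, by the mean of cell CPM and without each highest cell, where under 10 UMIs were left to compare. AQP1 in NoPP against JEJ, at 1.39 (log2), came to between 0.71 and 0.96 with shared barcodes kept, Leiden clusters, the stricter gate, the mean of cell CPM or no mitochondrial limit. Without that limit AQP11 in enteroendocrine-like against enterocyte-like cells came to -0.39 in DUOD and -0.27 in JEJ, from -1.64 and -1.57. Shares of JEJ enterocyte-like cells with a UMI went to 18.4% for AQP8, 3.16% for AQP10 and 8.42% for AQP11 at 1000 UMIs. The settings without a mitochondrial limit and with cells of at least 5000 UMIs were chosen after seeing the data. No paired analysis was possible because barcodes carry no title or replicate number, and no replicate could be left out for the same reason. Depth limits the small groups: 0 UMIs still allow 6.02 CPM in the 32 enterocyte-like cells of NoPP and 15.3 CPM in the 39 BEST4-like cells of JEJ.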

Other observations

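Other aquaporins of the matrices add to the picture. AQP3, an aquaglyceroporin of basolateral membranes, had 886 UMIs, of which 51.2% lay in enterocyte-like cells. Its lowest level there was in JEJ, where AQP10 was highest: 38.8 CPM in DUOD (33.6 to 44.6), 12.9 in JEJ (9.41 to 17.3), 71.2 in IPP (61.1 to 82.4) and 64.2 in NoPP (43.9 to 90.7). It was 3.01-fold lower in JEJ than in DUOD (2.17 to 4.26), 5.52-fold higher in IPP than in JEJ (3.96 to 7.83) and 4.98-fold higher in NoPP than in JEJ (3.06 to 8.01). With the enterocyte marker share it was 12.7-fold higher from the low to the high group in JEJ (3.89 to 65.9) and 5.41-fold higher in DUOD (3.28 to 9.37), but 1.40 times in IPP (0.957 to 2.06) and 1.04 times in NoPP (0.321 to 3.28), both with intervals across 1. The JEJ ratio rests on 3 AQP3 UMIs in the low group and 25 in the high group. Enteroendocrine-like cells held 0 AQP3 UMIs in all 4 regions, and T or innate lymphoid-like cells held 15.2, 17.1, 10.98 and 9.18 CPM in DUOD, JEJ, IPP and NoPP. In JEJ that was above the 12.9 CPM of the enterocyte-like cells.

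AQP5, a water channel of glands, had 35 UMIs in 6 cells. Of these, 30 lay in 1 DUOD epithelial cell of 17327 UMIs that met no class, and 3 DUOD enteroendocrine-like cells had 1 each. AQP6 had 10 UMIs in 10 cells, none of them epithelial, and AQP2, AQP4 and AQP9 had 0 UMIs in the kept cells.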
